A study of Mus musculus with 12 samples.

Results

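Gene-end peaks are sites of open chromatin at the 3' end of genes. They were taken as the ATAC-seq peaks annotated as TTS (transcription termination site) or 3' UTR (3' untranslated region) that lay over 1000 bp from the nearest transcription start site (TSS). Microglia had 2781 such peaks of 91770, NeuN+ nuclei 4429 of 107627 and Olig2+ nuclei 3272 of 82577, which makes 10482 of 281974. The 3 tables were kept apart because each sort had its own peak set.

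ATAC-seq uses a transposase that inserts sequencing adapters into open DNA. The 12 libraries came from forebrain of C57BL/6 mice aged 4 months, with 2 libraries in each of 6 groups. WT mice were compared with SgshKO mice, which lack the lysosomal enzyme N-sulfoglucosamine sulfohydrolase that removes sulfate groups from heparan sulfate; the labels do not describe the allele. Microglia were sorted live as CD11b+ CX3CR1+ cells with low CD45, whereas NeuN+ nuclei (neurons) and Olig2+ nuclei (oligodendrocyte lineage) were sorted after light formaldehyde fixation, in both cases negative for PU.1 and for the other nuclear marker, so that sort and preparation cannot be told apart.

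The 3' UTR is the part of a messenger RNA that follows the stop codon and carries sites for microRNAs and RNA-binding proteins. Past it, RNA polymerase II goes on transcribing until cleavage at the polyadenylation signal is followed by termination. Open chromatin at gene ends can mark an enhancer, the start of a neighbouring or antisense transcript, an insulator, or the passage of polymerase through a very active gene. The lysosomal storage of heparan sulfate that follows Sgsh loss affects neurons and glia, and microglia are known to respond to it with a disease-associated state.

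Sequence was at hand only where a gene-end peak overlapped a start-site window of another gene in the RefSeq promoter table (GRCm38.p6, whose primary chromosomes are those of mm10). This held for 12 of the microglia peaks (0.432%), 15 of the NeuN+ peaks (0.339%) and 9 of the Olig2+ peaks (0.275%). The distance in the deposited tables is over 1000 bp for each of them. The sequences below show 4 of the overlaps that recur in all 3 sorts, with 15 bases before the start site in lower case and the first 15 transcribed bases in capitals, and each stretch is 5' to 3' on the strand of the gene whose start it is. The fifth, at Unc13a, is covered at its start site in NeuN+ nuclei.
Nhej1 start at the Slc23a3 end, chr1:75125212-75125241, minus strand: agaccccgccttcctGAGTGTGTTGTGTGT
Zscan18 start at the Zfp329 end, chr7:12803624-12803653, minus strand: gagcctggggcgagcACGCGCAGACCTCTA
Gramd2 start at the Pkm end, chr9:59680139-59680168, plus strand: ttcccggggtgggcgGTCCCCGGAGGGCAC
Gm39222 start at the Irx3 end, chr8:91797729-91797758, minus strand: gggtggacgccacagTGGGGAAACCTGGGG
Gm39195 start in the Unc13a 3' UTR, chr8:71629504-71629533, plus strand: gttgctgcgctgcgaCAGGATGCGCAGCAC

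The stretches were 56.7% to 80.0% G or C. Zscan18 encodes a zinc-finger protein, Nhej1 a DNA end-joining factor, and Gm39222 and Gm39195 are long non-coding RNAs. Motifs were searched on both strands in the 40 stretches where a gene-end peak and a start-site window overlap. The palindromic E-box CACGTG, the core that MITF, TFEB and TFE3 bind, was found in 3 stretches, all of them the same site next to the Zscan18 start. The PU.1 motif GAGGAAG was found in 3 stretches, the ETS motif CCGGAAG in 2 and the SOX motif CATTGT in 1. Both ETS matches and 2 of the 3 PU.1 matches are 1 site each in a Meltf peak, counted through a pair of overlapping Gm52243 windows. The AP-1 motif TGANTCA and the polyadenylation signal AATAAA were found in 0. The CTCF consensus was searched only in the whole start-site windows and not in these stretches. Of 32851 start-site windows of 300 bases, 7.15% held CACGTG, 13.6% GAGGAAG, 8.86% CCGGAAG, 12.6% CATTGT, 7.81% TGANTCA, 19.6% AATAAA and 0.402% the CTCF consensus. A match is a run of letters and not a bound site, and the overlapping stretches are shorter than the windows. The E-box and one of the PU.1 and ETS matches are shown with the motif in capitals.
Zscan18 start at the Zfp329 end, chr7:12803600-12803629, minus strand: cctctagcgtccCACGTGggagttgagccc
Gm52243 start in the Meltf 3' UTR, chr16:31897195-31897224, minus strand: tcttcagagaacgcGAGGAAGgaggcctgc
Gm52243 start in the Meltf 3' UTR, chr16:31897260-31897289, minus strand: tgtcctggtttCTTCCGGttgagctctgta

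Values below are ATAC-seq tags in a peak after the authors scaled each library to a total of 10000000 tags. Changes are SgshKO over WT on the log2(tags + 1) scale, with the standard error of the limma fit and a p-value adjusted over all peaks of the table by the Benjamini-Hochberg method. A peak was called at an adjusted p under 0.05. Each group had 2 libraries and the labels name no animals, so that p-values measure the spread between these libraries, which may be technical. A lower signal from fewer open cells cannot be told apart from a lower signal per cell.

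Where gene-end peaks overlapped a start-site window, accessibility in NeuN+ nuclei was lower in SgshKO in each of the 5 peaks that were called of 15, beside 29.8% called of all NeuN+ peaks. The peak at the Lrrc43 end (chr5:123508268-123508471), which overlaps the B3gnt4 window but stops short of its start site, held 70.2 and 62.7 tags in WT and 33.5 and 29.8 in SgshKO, a change of -1.05 (SE 0.17, adjusted p = 2.60e-04). The Pkm end, which lies on the Gramd2 start, went from 73.1 and 86.4 tags in WT NeuN+ nuclei to 49.6 and 38.1 in SgshKO (-0.86, SE 0.17, adjusted p = 0.00114). The Irx3 end held 9.63 and 8.47 tags in WT and 2.09 and 1.90 in SgshKO (-1.74, SE 0.38, adjusted p = 0.00256). None of these WT ranges overlapped the SgshKO range. The same 3 peaks changed by 0.38, -0.10 and -0.23 in microglia and by 0.36, 0.37 and 0.04 in Olig2+ nuclei, where none of the 3 was called. Of the overlapping peaks, limma called 1 of 12 in microglia, beside 7.37% of all peaks, and 0 of 9 in Olig2+ nuclei, beside 19.8%. The single one in microglia, in the Meltf 3' UTR (chr16:31897578-31897847), held 7.78 and 8.47 tags in WT and 3.46 and 0 in SgshKO (-2.11, SE 0.61, adjusted p = 0.0278).

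One gene-end peak overlapped a microRNA hairpin, the 3' UTR peak of Arl2 in Olig2+ nuclei (chr19:6134367-6134856) that of Mir12193. The peak holds the whole 3p arm and part of the 5p arm. Its mature arms are shown with the seed, bases 2 to 8, in capitals.
mmu-miR-12193-3p: aCCGGUCCuuucuguccccag
mmu-miR-12193-5p: uGGGUGACuggaaaggacaagc
The peak held 22.8 and 22.5 tags in WT and 20.3 and 24.6 in SgshKO, and the groups overlapped (-0.02, SE 0.23, adjusted p = 0.963).

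TTS peaks were 55.2% of the gene-end peaks of microglia, 53.5% of those of NeuN+ nuclei and 57.2% of those of Olig2+ nuclei. The transcript named in the annotation could be matched to a gene for 99.6%, 99.6% and 99.7% of the peaks, and 94.1% to 95.9% lay at the end of a protein-coding gene. The labels held up against gene coordinates. Where the end of the gene was known (89.8%, 88.8% and 89.3% of peaks), the median centre of TTS peaks was 424, 419 and 437 bp past the end, and that of 3' UTR peaks was at -1031, -1147 and -1008 bp, where negative is inside the gene. Between 100 bp inside and 1000 bp past the end lay 90.1%, 89.7% and 89.0% of the TTS peaks. TTS peaks named below with their centre farther inside the gene include those at Neat1, Ifitm10, Trak1, Arhgap27, Tsc22d4, Marchf5 and Prrt1. The gene whose end a peak marks was the gene of the nearest start site in only 49.9%, 40.4% and 44.4% of cases, so that a table read by nearest gene assigns many gene-end peaks to a neighbour. Gene names below are those of the gene that ends there.

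**Figure D1:**
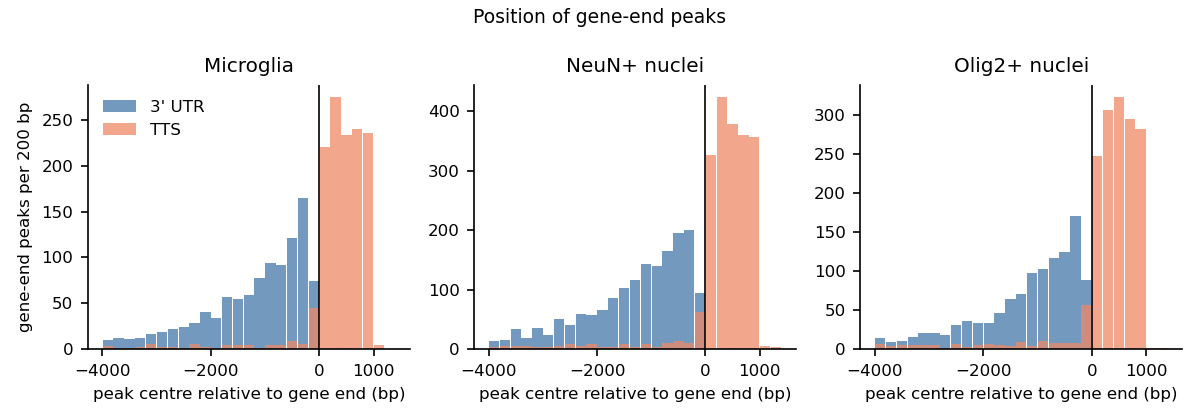
Number of gene-end peaks per 200 bp by the position of the peak centre relative to the annotated end of the gene, with negative values inside the gene, for TTS and 3' UTR peaks in each sort. TTS peaks fill the stretch up to 1000 bp past the gene end, and 3' UTR peaks thin out towards the inside, with medians at -1031, -1147 and -1008 bp.

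The peaks lay on 2070, 2970 and 2095 genes (microglia, NeuN+, Olig2+), of which 483, 897 and 679 carried more than 1. The genes with the most differed between sorts. Klf6, an early-response zinc-finger gene, had 8 peaks within 3634 bp in microglia. Nfasc, which encodes the axonal adhesion protein neurofascin, had 10 in NeuN+ nuclei, and Cntn2, a juxtaparanodal adhesion gene, had 12 in Olig2+ nuclei, followed by the myelin genes Mbp with 11 and Mobp with 10. Distances to the nearest start site had medians of 7749, 8267 and 6550 bp. Just beyond the distance limit were the peaks at Mir9-3 (1005 bp, 26.8 and 21.2 tags in WT, 37.2 and 22.3 in SgshKO) in microglia, AB124611 (1002 bp) in NeuN+ nuclei and Rab26os (1001 bp) in Olig2+ nuclei. Just within it, and left out, were Mir7228 (994 bp, 25.1 and 22.9 tags in WT, 31.2 and 20.4 in SgshKO), Mir674 (999 bp) and 2010320M18Rik (994 bp).

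Gene-end peaks were weaker than start-site peaks and close to intron and intergenic peaks. Their median WT signal was 28.3, 11.6 and 13.1 tags (microglia, NeuN+, Olig2+), against 60.8, 42.7 and 48.1 at promoter-TSS peaks and 27.0, 11.3 and 13.4 at intron peaks. In reads as counted, the median gene-end peak held 22 to 35 reads per microglia library, 14 to 20 per NeuN+ library and 20 to 26 per Olig2+ library, and 7, 5 and 1 peaks were at 0 in at least 1 library. Between the 2 libraries of a genotype, log2 signal over gene-end peaks had a Pearson r of 0.944, 0.889 and 0.929 for WT (microglia, NeuN+, Olig2+) and 0.923, 0.825 and 0.909 for SgshKO. These r values are across peaks, which share libraries and depth, and are descriptions.

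The strongest gene-end peaks in WT microglia were at Kctd12, Csrp1, Sdhc and Mgll. Kctd12, an auxiliary subunit gene of GABA-B receptors, held 681 and 498 tags in WT and 461 and 348 in SgshKO at its strongest peak (chr14:102975934-102976247). Csrp1, which encodes a LIM-domain protein, held 584 and 557 in WT and 461 and 381 in SgshKO. Neither was called (adjusted p = 0.201 and 0.292). Sdhc and Mgll, for a succinate dehydrogenase subunit and monoacylglycerol lipase, were also not called (adjusted p = 0.818 and 0.566).

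Overlap between sorts set gene ends apart from start sites. A peak of at least 1 other sort overlapped by 1 bp or more at 39.1%, 37.3% and 46.8% of the gene-end peaks (microglia, NeuN+, Olig2+). Over all peaks this share was close, at 39.8%, 40.1% and 48.8%. Both other sorts had a peak there for 19.2%, 12.1% and 16.5%. For promoter-TSS peaks the share in both other sorts was 64.7%, 64.6% and 71.4%, for introns 11.9%, 9.90% and 12.7%, and for intergenic peaks 13.3%, 11.9% and 17.1%. TTS peaks were shared with both other sorts more often than 3' UTR peaks, with 347 of 1535 against 187 of 1246 for microglia, 14.7% against 9.09% for NeuN+ and 18.6% against 13.7% for Olig2+ nuclei. No test was made of these shares. Gene-end peaks found in both other sorts were stronger in WT (medians of 39.5, 19.2 and 21.9 tags) than those of a single sort (25.3, 10.5 and 11.6 tags).

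Over the series, library totals ran from 10771659 to 19555924 tags. Peaks held 48.7% to 67.4% of the tags of microglia libraries, 21.2% to 26.7% for NeuN+ and 30.9% to 31.8% for Olig2+ libraries. The SgshKO replicate 1 of microglia stood highest, and in NeuN+ nuclei both SgshKO libraries (21.5% and 21.2%) were below both WT libraries (26.7% and 25.9%). Start sites of the sorts' own markers carried most marker signal: 28 of 29 homeostatic microglia genes, 48 of 50 neuron genes and 39 of 40 oligodendrocyte genes had a peak within 1000 bp of the start in their own sort. Of 12 blood myeloid markers, 5 had a peak in microglia, 1 in NeuN+ and 0 in Olig2+ nuclei.

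In microglia the share of gene ends called was close to that of all peaks, with more lower than higher calls. Of 2781 gene-end peaks 189 were called, or 6.80%, beside 7.37% of all peaks. Of these 71 were higher in SgshKO (2.55%, beside 5.05% of all peaks) and 118 lower (4.24%, beside 2.33% of all peaks). The median change was -0.18 for gene ends and -0.08 for all peaks, against 0.16 at promoter-TSS peaks, where 1899 of 2064 calls were higher. Exon peaks had a median of -0.31, with 41 calls higher and 93 lower. All peaks over 1000 bp from a TSS had -0.12, with 3.81% called higher and 2.69% lower. Of the calls at gene ends 37.6% were higher under the deposited scaling, 16.5% after scaling to tags in peaks and 75.8% with DESeq2. Of the calls over all peaks these shares were 68.5%, 35.1% and 90.85%. The median of the gene ends minus that of all peaks was -0.10 under the deposited scaling and after scaling to tags in peaks, and -0.09 with quantile normalization. The call count rested on single libraries: leaving out WT replicate 1 gave 23 and WT replicate 2 gave 9, whereas leaving out SgshKO replicate 1 gave 645 and SgshKO replicate 2 gave 479.

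**Figure D2:**
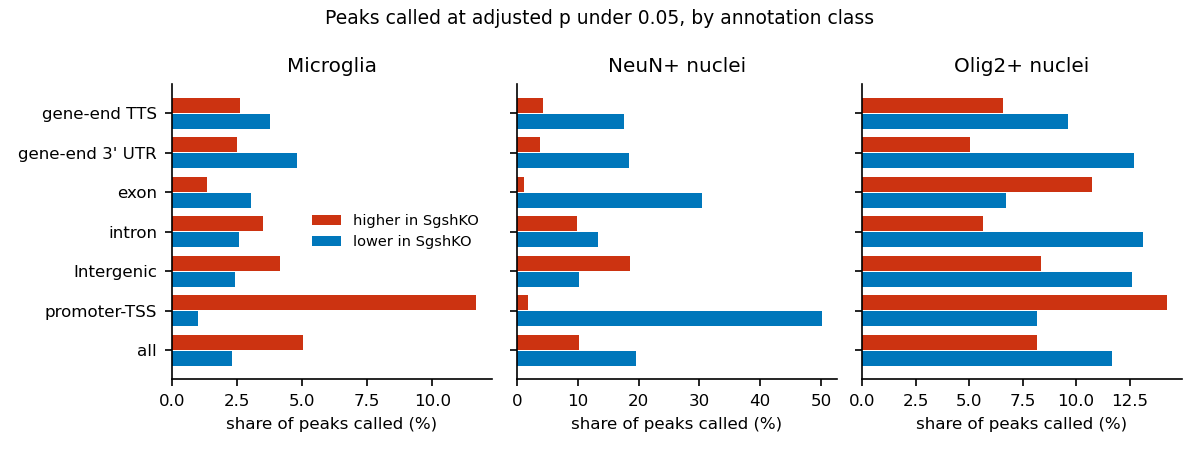
Share of peaks called at an adjusted p under 0.05 (limma), in percent, higher (red) or lower (blue) in SgshKO, by annotation class and sort. Under the deposited scaling gene-end bars lean to lower in each sort. Exon bars lean to lower in microglia and NeuN+ nuclei and to higher in Olig2+ nuclei. Promoter-TSS bars lean to higher in microglia and to lower in NeuN+ nuclei.

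Sizes are ranked below among called gene ends with genotypes separated and a mean signal at or above the table's median, 1 per gene, and weaker peaks can change more. On that basis the largest increase in SgshKO microglia was at Neat1, the long non-coding RNA that builds paraspeckles. A TTS peak inside the gene (chr19:5841334-5841567) held 136 and 88.1 tags in WT and 1091 and 547 in SgshKO, a change of 2.81 (SE 0.29, adjusted p = 4.21e-08). The second TTS peak (chr19:5842071-5842304) went from 93.3 and 85.6 to 771 and 422 (2.66, SE 0.28, adjusted p = 7.66e-08). Both SgshKO libraries lay far above both WT libraries. The Neat1 start-site peak rose by 1.68 (adjusted p = 2.1e-05), less than both TTS peaks. Relative to the annotated gene end, their centres lay at -16742 and -17479 bp, where negative is inside the gene. They were 4028 and 3291 bp from the start site, so the annotated end itself was not compared with the start.

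The next 5 increases on the same basis were these. Mcfd2, a cargo receptor partner for clotting factors, held 12.1 and 16.9 tags in WT and 84.8 and 75.2 in SgshKO in its 3' UTR (chr17:87255662-87255873; 2.40, SE 0.38, adjusted p = 6.70e-05). 1700008O03Rik (chr7:44359850-44360424) went from 27.7 and 19.5 tags to 91.8 and 129 (2.18, SE 0.36, adjusted p = 8.46e-05). Gm6583 went from 32.8 and 53.4 to 191 and 194 (chr5:112353134-112353396; 2.17, SE 0.32, adjusted p = 1.79e-05). Separation between genotypes was a condition of this ranking. Galnt9, an enzyme that starts mucin-type O-glycans, rose by 2.16 (13.8 and 16.1 in WT, 81.4 and 60.3 in SgshKO, adjusted p = 3.27e-04). Syngr1, a synaptic vesicle protein gene, rose by 1.92 (35.4 and 29.7 in WT, 136 and 115 in SgshKO, adjusted p = 1.98e-04). The start-site peaks of Syngr1, Gm6583 and 1700008O03Rik changed by 0.02, 0.05 and 0.22 and were not called.

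The 6 largest decreases in microglia on the same basis were at genes of differing roles. Ifitm10, an interferon-induced transmembrane family gene, held 92.5 and 86.4 tags in WT and 22.5 and 19.5 in SgshKO (chr7:142354964-142355171; -2.04, SE 0.36, adjusted p = 2.49e-04). The 3' UTR peak of Gfm2, a mitochondrial translation factor gene, went from 75.2 and 78.8 to 14.7 and 29.7 (chr13:97179625-97179962; -1.83, SE 0.38, adjusted p = 0.00188). It was 1 of 6 gene-end peaks at Gfm2 in microglia, of which 4 were called, all 4 lower. The 2 peaks there in NeuN+ nuclei changed by 0.54 and 0.64 and were not called.

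Impdh1, an enzyme of guanine nucleotide synthesis, fell from 44.9 and 57.6 tags to 20.8 and 10.2 (-1.73, SE 0.42, adjusted p = 0.00703). Slco2b1, an organic anion transporter gene, fell from 50.1 and 48.3 to 14.7 and 13.9 in its 3' UTR (-1.71, SE 0.40, adjusted p = 0.00580), and its start-site peak fell by 1.32 (adjusted p = 0.0297). Camk2b, a neuronal kinase subunit gene, fell from 57.9 and 58.5 to 22.5 and 13.9 (-1.66, SE 0.39, adjusted p = 0.00600). A weaker Kctd12 peak fell from 75.2 and 73.7 to 20.8 and 34.4 (-1.44, SE 0.37, adjusted p = 0.0105). Their separation between genotypes was a condition of the ranking. Of 18 called peaks named for microglia, 11 lost the call without WT replicate 1 and 13 without WT replicate 2.

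The gene lists were matched on the gene that ends at the peak. Of 14 peaks at genes of disease-associated microglia (DAM), 4 rose and 0 fell (28.6% called, beside 7.37% of all peaks), with a median of 0.59 beside -0.08 for all peaks. Cd68, a lysosomal glycoprotein of phagocytes, rose from 25.9 and 27.1 tags to 77.9 and 75.2 (chr11:69663940-69664175; 1.49, SE 0.36, adjusted p = 0.00631). Cd83, an activation marker, rose from 9.51 and 6.78 to 30.3 and 23.2 (1.61, adjusted p = 0.0262). Ctsd, for the protease cathepsin D, rose from 89.0 and 69.5 to 202 and 124 (1.00, adjusted p = 0.0407), and Axl, a receptor kinase that binds apoptotic cells, from 293 and 252 to 449 and 489 (0.79, adjusted p = 0.0494). All 4 were separated between genotypes, as were all 189 called gene ends of microglia. With quantile normalization 3 of the 14 rose.

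Of 23 peaks at homeostatic microglia genes 0 rose and 3 fell (13.04%, beside 7.37% of all peaks), with a median of -0.67. Cx3cr1, the fractalkine receptor, fell from 38.03 and 34.7 tags to 15.6 and 7.43 (chr9:120048191-120048432; -1.66, SE 0.45, adjusted p = 0.0162). Siglech, a sialic acid-binding receptor, fell from 106 and 78.8 to 51.1 and 31.6 (-1.17, adjusted p = 0.0301), and the small GTPase gene Rhob from 87.3 and 87.3 to 49.4 and 34.4 (-1.07, adjusted p = 0.0459). After scaling to tags in peaks 9 of the 23 fell, and with DESeq2 1.

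Of 24 lysosome-list peaks 3 rose and 1 fell (16.7% called, beside 7.37% of all peaks), with a median of 0.11. Arsb, a lysosomal sulfatase that acts on glycosaminoglycans, rose from 6.05 and 6.78 tags to 45.9 and 27.9 in its 3' UTR (chr13:93941382-93941583; 2.31, SE 0.46, adjusted p = 0.00117), while its start-site peak changed by 0.07 and was not called. Cd68 and Ctsd, which the DAM list also holds, were the other two. Gusb, a lysosomal glucuronidase, was lower at a TTS peak inside the gene (12.96 and 20.3 in WT, 0.87 and 7.43 in SgshKO; -2.12, adjusted p = 0.0175). The median of the lysosome list was below 0 after scaling to tags in peaks (-0.10) and with quantile normalization (-0.06).

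Immediate-early genes, which are switched on within minutes of a stimulus, had 64 gene-end peaks at 18 genes in microglia, of which 1 rose and 4 fell. The share called, 7.81%, was near the 7.37% of all peaks. The 4 that fell were at Egr3 (2 peaks, -1.69 and -1.97), Fos (-1.15) and Egr1 (-1.04), all transcription factor genes. Fos went from 143 and 121 tags to 63.2 and 54.8 (adjusted p = 0.0177). Jund, an AP-1 subunit gene, rose by 0.86. The split moved with the scaling: 14 fell and 1 rose after scaling to tags in peaks, 12 fell and 1 rose with quantile normalization, 6 fell and 7 rose with median-of-ratios scaling, and 2 fell and 5 rose with DESeq2. Among other cell types, 3 of 6 astrocyte-list peaks rose, beside 5.05% of all peaks called higher. All 3 were at Glul, the glutamine synthetase gene (128.8 and 106 in WT, 392 and 150 in SgshKO at the strongest of the 3). Of 6 oligodendrocyte-list peaks only that at Ptgds was called (16.7%, beside 7.37% of all peaks), rising from 8.64 and 11.9 to 43.3 and 26.9 (1.66, adjusted p = 0.0164). Of 12 neuron-list peaks 0 rose and 2 fell (16.7% called, beside 7.37% of all peaks). Summed signal at the start sites of oligodendrocyte markers was 2426 and 2108 tags in WT and 3344 and 2788 in SgshKO, and of neuron markers 1363 and 1228 against 2236 and 1681, with peaks at 23 of 40 and 19 of 50 genes. Astrocyte markers summed to 404 and 379 in WT and 493 and 388 in SgshKO, and blood myeloid markers to 157 and 130 against 288 and 175. Their part in the changes at gene ends was not tested.

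**Figure D3:**
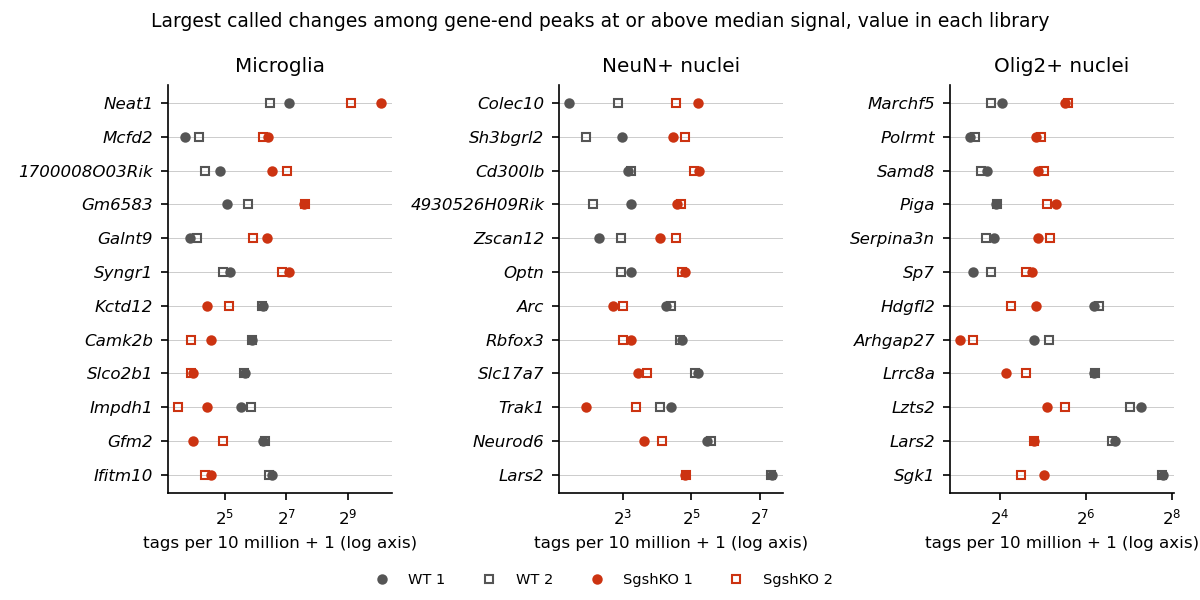
Tags + 1 in each library, on a log2 axis, for the 6 largest called increases and 6 largest called decreases in each sort among gene-end peaks with a mean at or above the table's median, 1 per gene. Grey symbols are WT and red SgshKO, filled for replicate 1 and open for replicate 2. Peaks were chosen so that the 2 red points lie on 1 side of the 2 grey ones.

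In NeuN+ nuclei most called gene ends were lower in SgshKO under the deposited scaling. Of 4429 peaks 980 were called (22.1%, beside 29.8% of all peaks), 181 higher (4.09%, beside 10.2%) and 799 lower (18.0%, beside 19.6%). The median change was -0.38, beside -0.23 for all peaks, -0.54 at promoter-TSS peaks and 0.07 at intergenic peaks. Exon peaks had -0.595, with 63 calls higher and 1619 lower. All peaks over 1000 bp from a TSS had -0.11, with 12.59% called in each direction. This split depended on the scaling. Of the calls 18.5% were higher under the deposited scaling, 56.2% after scaling to tags in peaks, 43.6% with median-of-ratios scaling, 40.0% with quantile normalization, 44.5% with edgeR and 67.8% with DESeq2. Over all peaks the shares in this order were 34.3%, 66.5%, 57.7%, 62.0%, 58.25% and 54.5%. The median of all peaks moved from -0.23 to 0.05 after scaling to tags in peaks, and the median of the gene ends minus that of all peaks was -0.14 under the deposited scaling, -0.15 after scaling to tags in peaks and -0.20 with quantile normalization. Without SgshKO replicate 1 or without SgshKO replicate 2, 0 peaks of the table were called by limma, with 1186 and 1222 gene-end peaks at an unadjusted p under 0.05. Leaving out WT replicate 1 gave 201 calls and WT replicate 2 gave 271, and the count was 719 with edgeR and 59 with DESeq2 on all 4 libraries.

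On the basis given above, the largest decrease in NeuN+ nuclei was at Lars2, the mitochondrial leucyl-tRNA synthetase gene. Its 3' UTR peak (chr9:123461887-123462087) held 163 and 158 tags in WT and 27.2 and 27.9 in SgshKO (-2.50, SE 0.14, adjusted p = 4.75e-09). The peak with the same coordinates in Olig2+ nuclei held 100.1 and 96.1 in WT and 26.4 and 26.6 in SgshKO (-1.85, SE 0.17, adjusted p = 2.40e-09), and in microglia 170.2 and 113 against 129 and 62.2 (-0.62, adjusted p = 0.262). In both nuclei sorts the replicates lay close together and the genotypes far apart, and in microglia they overlapped. The end of Lars2 in the mouse assembly contains ribosomal RNA-like sequence, so reads placed there may come from other copies and the values are uncertain.

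Neurod6, a transcription factor gene of excitatory neurons, fell from 43.1 and 46.3 tags to 11.2 and 16.5 past its end (chr6:55676864-55677326; -1.64, SE 0.23, adjusted p = 6.66e-05), while its start-site peak changed by -0.33 and was not called. Slc17a7, the vesicular glutamate transporter VGLUT1, fell at each of 3 TTS peaks, the first from 35.7 and 33.3 to 9.77 and 12.1 (chr7:45175960-45176340; -1.58, SE 0.24, adjusted p = 1.34e-04), and by 1.54 at its start. Rbfox3, which encodes the NeuN protein used for the sort, fell from 25.5 and 24.3 to 8.38 and 6.98 at 1 of its 4 gene-end peaks (-1.58, SE 0.27, adjusted p = 3.77e-04). The other 3 Rbfox3 peaks changed by -0.05 to 0.02 and were not called. Trak1, a kinesin adaptor for mitochondria, fell from 20.4 and 15.8 to 2.79 and 9.52 (-1.59, SE 0.39, adjusted p = 0.00580). Of 55 neuron-list peaks at 20 genes, 0 rose and 12 fell, with a median of -0.52 beside -0.23 for all peaks. The share called, 21.8%, was near the 19.6% of all peaks called lower and below the 29.8% called in either direction. After scaling to tags in peaks 8 fell and the median was -0.25, and with DESeq2 2 fell.

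Of 20 immediate-early peaks at 12 genes 0 rose, 10 fell and 10 were not called, with a median of -0.82. The share that fell, 50.0%, stands beside 19.6% of all NeuN+ peaks. Arc, a synaptic plasticity gene induced by activity, had 4 peaks, of which 3 fell; the peak 602 bp past its end went from 18.1 and 20.3 tags to 5.58 and 6.98 (chr15:74668379-74668579; -1.48, SE 0.29, adjusted p = 0.00132). Junb, an AP-1 subunit gene, fell from 131 and 97.1 to 55.8 and 61.0 past its end (-0.94, adjusted p = 2.10e-04). Ier5, a stress-response gene, fell from 10.2 and 9.04 to 1.40 and 1.90 (-2.01, adjusted p = 0.00101). Fosb (-0.90), Egr3 (-0.98) and the phosphatase gene Dusp1 (adjusted p = 0.0191) fell as well. The count was 7 fallen and 1 risen after scaling to tags in peaks, 6 fallen with quantile normalization and 2 fallen with DESeq2.

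Lysosomal gene ends in NeuN+ nuclei gave 0 increases and 8 decreases among 19 peaks (42.1%, beside 19.6% of all peaks called lower), with a median of -0.65. Smpd1, the acid sphingomyelinase gene, fell from 36.8 and 50.3 tags to 23.7 and 18.4 (chr7:105559098-105559354; -1.01, SE 0.22, adjusted p = 0.00255). Gaa, the acid alpha-glucosidase gene, fell by 1.87 (11.9 and 14.1 in WT, 1.40 and 5.08 in SgshKO), and Grn, the progranulin gene, by 0.77 (52.7 and 41.2 in WT, 30.7 and 23.5 in SgshKO). Tfeb, a master regulator of lysosomal genes, fell by 0.89, and Hexa, Hyal1, Gusb and Atp6v0a1 fell too (-1.12 to -0.91). After scaling to tags in peaks 1 rose and 3 fell, and DESeq2 called 0 of the 19, against 8 by limma. At markers of other cell types, 2 of 8 oligodendrocyte-list peaks (Tmem88b and Trf) and 3 of 9 homeostatic-list peaks (Spi1, Rhob and Smad3) fell, and Csf1 of the DAM list rose from 2.83 and 5.08 to 16.1 and 7.62. Summed start-site signal was lower in SgshKO for neuron markers (5424 and 5154 against 3195 and 3183) and for homeostatic microglia markers (911 and 864 against 565 and 535). Oligodendrocyte markers summed to 922 and 849 against 579 and 653, and astrocyte markers to 313 and 284 against 201.0 and 201.2. The part of these shifts in the changes at gene ends was not tested.

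Increases in NeuN+ nuclei were fewer than decreases under the deposited scaling. Colec10, a collectin gene, rose from 1.70 and 6.21 tags to 35.6 and 22.2 (chr15:54467004-54467216; 2.72, SE 0.39, adjusted p = 8.19e-05). Sh3bgrl2 rose from 6.80 and 2.82 to 20.9 and 27.3 (2.19, SE 0.34, adjusted p = 1.81e-04), whereas its start-site peak fell by 0.98 (adjusted p = 0.00186). Cd300lb, a myeloid receptor gene, rose from 7.93 and 8.47 to 36.3 and 33.0 (1.95, SE 0.25, adjusted p = 2.52e-05). That genotype values did not overlap was a condition of the choice. 4930526H09Rik rose by 1.95, Zscan12 by 1.68 and Optn, an autophagy receptor gene, by 1.67 (8.50 and 6.78 in WT, 27.2 and 25.4 in SgshKO, adjusted p = 2.31e-04). The start-site peak of Zscan12 fell by 0.47 (adjusted p = 0.0247) and that of Optn changed by -0.61 (adjusted p = 0.0582).

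The 4 strongest gene ends of WT NeuN+ nuclei were all called lower. Eif4g1, a translation initiation factor gene, fell from 222 and 175 tags to 78.9 and 88.3 (chr16:20693137-20693354; -1.23, SE 0.12, adjusted p = 2.92e-06), and its other 2 gene-end peaks fell (-0.70 and -0.78). Fam120a (-0.46), Sec14l2 (-0.34) and Synpo (-0.59) fell less. With quantile normalization Fam120a and Sec14l2 changed by 0.10 and 0.23, both not called, and neither was called with edgeR (adjusted p = 0.0686 and 0.396).

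**Figure D4:**
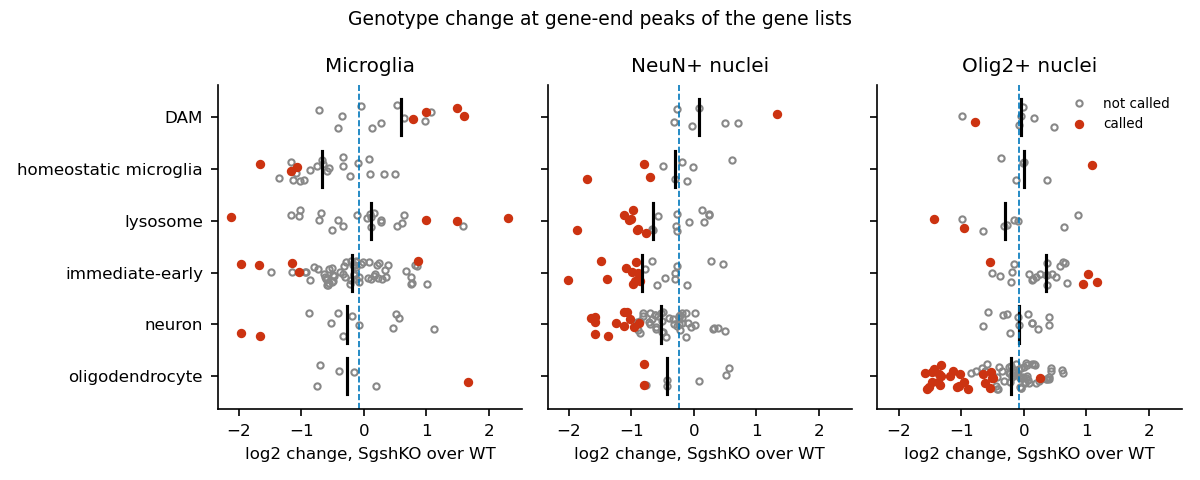
Log2 change (SgshKO over WT) of each gene-end peak at genes of 6 lists in the 3 sorts, filled red where called and open grey where not, with the list's median as a black bar and the median of all peaks of the sort as a dashed line. The median of the immediate-early peaks lies left of the dashed line in NeuN+ nuclei (-0.82) and right of it in Olig2+ nuclei (0.36), with single peaks on either side, and 10 Mobp peaks are among the red points of the oligodendrocyte list.

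In Olig2+ nuclei 552 of 3272 gene ends were called (16.9%, beside 19.8% of all peaks), 194 higher (5.93%, beside 8.17%) and 358 lower (10.9%, beside 11.7%). The median change was -0.09, beside -0.07 for all peaks, 0.12 at exon peaks and -0.13 at all peaks over 1000 bp from a TSS. Of the calls 35.1% were higher under the deposited scaling, 45.7% with median-of-ratios scaling, 49.7% with quantile normalization and 46.1% with edgeR. Over all peaks the shares in this order were 41.2%, 53.1%, 53.2% and 53.5%. Leaving out WT replicate 1 gave 193 calls and WT replicate 2 gave 177, and DESeq2 gave 72.

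Sgk1, a kinase gene induced by glucocorticoids, had the largest decrease of this sort on the basis given above. Its TTS peak (chr10:22000104-22000781) held 222 and 216 tags in WT and 31.4 and 21.3 in SgshKO (-3.03, SE 0.16, adjusted p = 6.98e-15). Its 3' UTR peaks (-1.09 and -1.44) and its start-site peak (-0.49) fell too. In microglia 2 of 3 Sgk1 gene-end peaks fell (-0.88 and -1.90).

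Of the 358 lower gene ends, 24 were at genes of the oligodendrocyte list, 17 of them at Mobp and Mbp. Mobp, a structural myelin protein gene, had 10 peaks and all 10 fell (-1.57 to -1.03), while its start-site peak fell by 0.84. The Mobp peak 350 bp past the end (chr9:120181652-120182025) went from 69.5 and 61.9 tags to 19.7 and 23.3 (-1.57, SE 0.19, adjusted p = 6.87e-07). Mbp, for myelin basic protein, had 11 peaks, of which 7 fell; its strongest went from 215 and 199 to 136 and 132 (-0.63, adjusted p = 4.51e-05). Both sets of WT and SgshKO values were separated. All 3 peaks at Mal, a myelin proteolipid gene, fell, as did both at Ptgds, for prostaglandin D synthase, and single peaks at the tetraspanin gene Tspan2 (-1.46) and the kinase gene Cdk18 (-1.32).

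Over the oligodendrocyte list 24 of 81 peaks fell and 1 rose (30.9% called, beside 19.8% of all peaks), with a median of -0.21. The 24 came from Mobp, Mbp, Mal, Ptgds, Tspan2 and Cdk18. Peaks of one gene are not independent, and the other 21 of 27 genes had 0 peaks that fell. These include the lineage factor genes Olig1, Olig2, Sox10 and Nkx2-2 and the myelin genes Mag and Cnp. The 1 that rose was at Gpr17, a receptor gene of committed precursors (202 and 192 in WT, 231 and 239 in SgshKO; 0.25, adjusted p = 0.0413), and with quantile normalization 0 rose and 18 fell, with DESeq2 0 and 11. Summed start-site signal of oligodendrocyte markers was 9044 and 9069 tags in WT and 8178 and 8314 in SgshKO, that of homeostatic microglia markers 1618 and 1567 against 1779 and 1912, and that of neuron markers 1580 and 1575 against 1685 and 1642. Their part in the changes at gene ends was not tested.

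Further decreases lay at genes with other roles. Lzts2 fell from 153 and 129 tags to 33.2 and 44.5 (chr19:45027391-45027622; -1.84, SE 0.15, adjusted p = 6.19e-10) and Lrrc8a, a subunit of the volume-regulated anion channel, from 72.1 and 72.6 to 16.6 and 23.3 (chr2:30263087-30263397; -1.83, SE 0.20, adjusted p = 7.41e-08). Start-site peaks of both changed less (-0.15 and -0.72) and were not called. Arhgap27 (-1.74) and Hdgfl2 (-1.70) fell as well. The strongest WT gene ends, at Tsc22d4, Pigq, Grb10 and 4933431E20Rik, fell (-0.33 to -0.27), and the 4 calls were lost with DESeq2. Of the Tsc22d4 values, 616 and 571 tags were in WT and 497 and 475 in SgshKO.

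On the same basis increases in Olig2+ nuclei were led by Marchf5, a ubiquitin ligase gene of the mitochondrial outer membrane, from 15.6 and 12.8 tags to 44.3 and 46.5 (chr19:37221794-37222094; 1.62, SE 0.22, adjusted p = 5.51e-06). Polrmt, the mitochondrial RNA polymerase gene, rose from 8.82 and 9.72 to 27.7 and 29.9 (1.54, SE 0.26, adjusted p = 1.12e-04). Samd8, which makes a sphingolipid analogue, rose by 1.32 and Piga, which starts GPI anchors, by 1.27. Serpina3n, a protease inhibitor gene known from reactive glia, rose from 13.5 and 11.8 to 28.3 and 34.6 (1.25, SE 0.25, adjusted p = 6.31e-04), and Sp7, a zinc-finger factor gene, by 1.10. Start-site peaks of these 6 genes changed by -0.45 to 0.48, and only that of Samd8 was called (0.48, adjusted p = 0.00768).

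The immediate-early list had 24 gene-end peaks at 11 genes in Olig2+ nuclei, of which 3 rose and 1 fell, with a median of 0.36. The share called, 16.7%, was below the 19.8% of all peaks, and with DESeq2 0 rose and 1 fell. Junb rose from 7.78 and 4.09 tags to 13.5 and 14.6 in its 3' UTR (1.17, adjusted p = 0.0147), Nr4a1 by 1.04 and Gadd45b by 0.95. The Jund peak at chr8:70700573-70700833 fell, while others at Jund changed by 0.36 and 0.19 and were not called. Of 10 lysosome-list peaks 0 rose and 2 fell, beside 19.8% of all peaks called, and DESeq2 called 0 of them. Those called by limma were Scarb2, the receptor that carries glucocerebrosidase to lysosomes (15.04 and 9.72 in WT, 3.69 and 3.99 in SgshKO; -1.44, SE 0.36, adjusted p = 0.00501), and Hexa (-0.95).

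Changes at gene ends were weakly related to those at the start site of the same gene. Genes with peaks at both places numbered 1649, 2445 and 1700 (microglia, NeuN+, Olig2+), and the strongest gene-end peak of each was taken. Across genes the changes at the end and at the start had a Pearson r of 0.17, 0.05 and 0.15, a description over genes that share libraries. WT signal was lower at the end than at the start in 71.7%, 87.7% and 82.0% of genes, and the WT levels at the 2 places had an r of 0.08, 0.00 and 0.01. The start-site peak was called at 17.0%, 65.0% and 27.0% of the genes whose end was called, close to the 15.6%, 64.3% and 26.7% of all these genes. Where both were called, they changed the same way in 13, 317 and 53 genes (microglia, NeuN+, Olig2+) and in opposite ways in 5, 61 and 35. In NeuN+ nuclei 799 of 980 gene-end calls and 8217 of 8525 promoter-TSS calls were lower under the deposited scaling. Same-way pairs there do not by themselves show a link by gene, which was not tested.

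By position, 7.91% of the microglia peaks over 1000 bp inside the gene end were called and 6.34% of those nearer the end on the inside. For NeuN+ nuclei these shares were 23.1% and 21.7%, and for Olig2+ nuclei 20.3% and 15.4%, with Olig2+ medians of -0.19 and -0.05. Distance to the nearest start site gave medians of 0.05 in Olig2+ gene ends between 1000 and 2000 bp away and -0.27 between 20000 and 50000 bp, and other peaks at these distances had 0.04 and -0.20. No test was made of these differences.

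To compare sorts directly, peaks that paired uniquely across the 3 tables, each covering at least 50% of the other, entered 1 model. The difference of the genotype changes was tested. That model gave the 6 groups 1 shared estimate of spread per peak. At Ssrp1 and Jund the difference between microglia and NeuN+ nuclei had an SE of 0.22. This is below the SE of the microglia change alone, 0.30 and 0.26, so p-values of differences with microglia may be too small. Of 16761 matched peaks 389 were gene ends in all 3 tables. Their median WT signal was 39.4, 19.8 and 22.1 tags (microglia, NeuN+, Olig2+). Between microglia and NeuN+ nuclei the change differed at 71 of the 389 (18.3%, beside 42.5% of all matched peaks), being more positive in microglia at 62. Between microglia and Olig2+ nuclei it differed at 34 (8.74%, beside 21.6%), 24 of them more positive in microglia, and between NeuN+ and Olig2+ nuclei at 44 (11.3%, beside 31.7%), 41 of them more negative in NeuN+ nuclei. The median difference for microglia minus NeuN+ nuclei was 0.20 at gene ends and 0.60 over all matched peaks. With quantile normalization within each sort, 41 gene ends differed between microglia and NeuN+ nuclei and 24 between NeuN+ and Olig2+ nuclei.

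At the matched TTS peak of Neat1 the change was 2.66 in microglia, -1.17 in NeuN+ nuclei (7.36 and 10.2 tags in WT, 4.19 and 2.54 in SgshKO, adjusted p = 0.0259) and 0.02 in Olig2+ nuclei (20.2 and 15.9 in WT, 19.1 and 17.3 in SgshKO). The difference was 3.83 between microglia and NeuN+ nuclei (SE 0.41, adjusted p = 9.36e-08) and 2.64 between microglia and Olig2+ nuclei (SE 0.41, adjusted p = 5.83e-05). In WT NeuN+ nuclei this peak was weak, below the gene-end median of 11.6 tags. The other Neat1 TTS peak changed by -0.24 in NeuN+ nuclei (11.3 and 6.78 tags in WT, 6.98 and 7.62 in SgshKO) and by 0.42 in Olig2+ nuclei. Neither change was called by limma (adjusted p = 0.608 and 0.115).

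Jund, with its matched peak centred 87 to 108 bp past the gene end, went from 303 and 300 tags to 662 and 455 in microglia (0.86, SE 0.26, adjusted p = 0.0304). In NeuN+ nuclei it went from 94.6 and 94.3 to 48.9 and 50.2 (-0.92, SE 0.14, adjusted p = 1.48e-04), and in Olig2+ nuclei from 161 and 162 to 106 and 116 (-0.54, SE 0.11, adjusted p = 8.75e-04). At this peak the genotypes were separated in each sort, upwards in microglia and downwards in both nuclei sorts. The changes differed by 1.78 (SE 0.22, adjusted p = 5.84e-07) and 1.40 (SE 0.22, adjusted p = 5.64e-05). Other Jund gene-end peaks did not fall in the nuclei sorts. They changed by 0.28 in NeuN+ nuclei, by 0.36 and 0.19 in Olig2+ nuclei and by 0.76 and 0.85 in microglia, and were not called.

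Upf1, a factor of nonsense-mediated RNA decay, went from 44.1 and 47.4 tags to 15.6 and 9.28 in microglia (-1.84) and from 70.2 and 75.7 to 35.6 and 34.3 in NeuN+ nuclei (-1.04). In Olig2+ nuclei it had 12.5 and 12.8 in WT and 17.2 and 19.3 in SgshKO (0.50, not called). The difference between microglia and Olig2+ nuclei was -2.34 (SE 0.38, adjusted p = 9.05e-05).

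Ssrp1, a subunit of the histone chaperone FACT, had 142 and 129 tags in WT and 64.2 and 59.7 in SgshKO NeuN+ nuclei (-1.12, adjusted p = 8.91e-06). It had 83.0 and 66.9 against 134 and 136 in microglia (0.85, adjusted p = 0.0818) and 159 and 147 against 155 and 160 in Olig2+ nuclei (0.04). The difference was 1.97 between microglia and NeuN+ nuclei (SE 0.22, adjusted p = 1.20e-07) and -1.16 between NeuN+ and Olig2+ nuclei (SE 0.22, adjusted p = 5.45e-04). The last was -0.62 and not called with quantile normalization within each sort.

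Prrt1, an AMPA receptor-associated protein gene, fell in NeuN+ nuclei from 112 and 115 tags to 53.1 and 50.8 (-1.11). It was not called in microglia (0.58, adjusted p = 0.207) or in Olig2+ nuclei, with 16.1 and 11.8 against 22.1 and 23.3 in the latter (0.68, adjusted p = 0.0622). Its changes differed by -1.79 between NeuN+ and Olig2+ nuclei (SE 0.28, adjusted p = 1.49e-04). H13, the signal peptide peptidase gene, went from 51.0 and 58.7 to 25.1 and 20.3 in NeuN+ nuclei (-1.24) and from 29.1 and 45.0 to 58.4 and 63.8 in Olig2+ nuclei (0.74, adjusted p = 0.00640). The difference was -1.98 (SE 0.34, adjusted p = 2.83e-04), with opposite called changes in the 2 nuclei sorts.

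**Figure D5:**
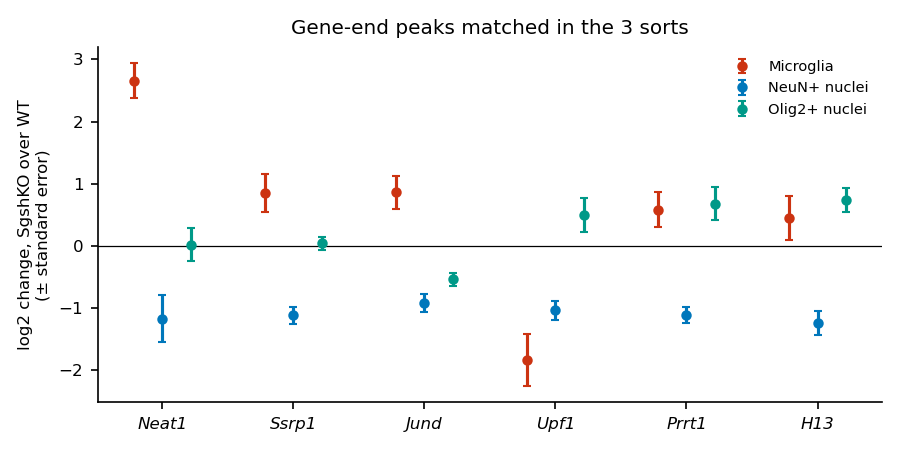
Log2 change (SgshKO over WT) with its standard error at 6 gene-end peaks matched in the 3 sorts, each from the fit of its own sort. Neat1 is at 2.66 in microglia and -1.17 in NeuN+ nuclei, and NeuN+ values are below 0 at all 6.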

How the data were processed

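Members, gene lists and tests were chosen with earlier results of these data known. ATAC-seq reads of 12 libraries were processed by the submitters with Bowtie2, HOMER and genome build mm10, per the submitters' processing notes. No versions are named there. The deposited files of the authors are 1 peak table per sort, with the annotation class and the distance to the nearest TSS of each peak, and a signal, the tags per peak and library, scaled per the file headers to 10000000 tags in total. Peak Score is the authors' deposited score per peak and served only as a filter, and other deposited columns (positions, annotation) chose the members. Multiplying by the library totals recovered whole reads, with 100% of values within 0.01 of a whole number.

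Within each whole table log2(signal + 1) was compared with limma 3.58.1 in R 4.3.3 (eBayes with a trend, two-sided, Benjamini-Hochberg adjustment), with no filter. The labels give 2 libraries per group and no batch. End genes and start-site windows came from RefSeq tables of GRCm38.p6, and no genome sequence was used. As alternatives the pseudocount was set to 0.5 or 5, the weakest 25% of peaks were dropped, 3 other scalings were used, recovered reads were tested with edgeR 4.0.16 or DESeq2 1.42.0, and there were a replicate block, each library left out, and stricter thresholds. Simulated data had 200 changed peaks per sort, all at or above the median read count. There limma recovered 90% of 4-fold and 8% of 2-fold changes for microglia, 95% and 46% for NeuN+, and 98% and 69% for Olig2+.

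In each sort the text names the 6 largest called increases and decreases (1 per gene, genotypes separated, mean at or above the table's median), the 4 strongest WT peaks, the smallest p of each gene list, the peaks beside the distance limit, and the 3 smallest p of each contrast between sorts. Other peaks of these genes and list members were named after their values were seen.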

Additional observations from a re-analysis of the deposited data

Results flagged for a closer look

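At 6 matched gene-end peaks the genotype change differed between sorts by the test of the difference itself. This was a limma interaction contrast over 12 libraries, with 1 estimate of spread shared by all groups. The matched Neat1 TTS peak lies inside the gene, nearer its start site than its annotated end. Its change differed by 3.83 on the log2 scale between microglia and NeuN+ nuclei and by 2.64 between microglia and Olig2+ nuclei. Jund differed by 1.78 and 1.40 in the same comparisons. Ssrp1 differed by 1.97 between microglia and NeuN+ nuclei and by -1.16 between NeuN+ and Olig2+ nuclei. Upf1 differed by -2.34 between microglia and Olig2+ nuclei. Prrt1 and H13 differed by -1.79 and -1.98 between NeuN+ and Olig2+ nuclei. The share of tags in peaks also moved with genotype in NeuN+ nuclei (26.7% and 25.9% in WT, 21.5% and 21.2% in SgshKO), and its part in these differences was not tested. Groups of 2 libraries were too small to look for single outlying samples.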

How the results depend on the processing

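The median gene end held 14 to 35 reads per library. Simulated 2-fold changes, placed only at peaks at or above the median read count, were mostly missed in microglia. Weaker peaks were not simulated with a change, and the part of depth was not tested. With 1 library left out at a time, counts of called gene ends ran from 9 to 645, 0 to 271 and 177 to 558 (microglia, NeuN+, Olig2+), and medians from -0.42 to 0.073, -0.38 to -0.33 and -0.11 to -0.07. In microglia the median was 0.073 without SgshKO replicate 2, which reversed its sign. All 21 called peaks named in NeuN+ nuclei lost the call without either SgshKO replicate. The microglia count was 503 scaled to tags in peaks, 346 with median-of-ratios scaling, 344 with quantile normalization, 423 with edgeR, 95 with DESeq2 and 66 at an adjusted p under 0.01. The NeuN+ count was 437 with quantile normalization, 59 with DESeq2, 646 among peaks with Peak Score 1000, 356 at an adjusted p under 0.01 and 652 over 5000 bp from a TSS. The Olig2+ count was 72 with DESeq2, 225 at an adjusted p under 0.01 and 350 over 5000 bp from a TSS. The cause of these shifts was not tested, apart from the smaller sets and stricter thresholds.

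The NeuN+ median was -0.39 and -0.28 with pseudocounts of 0.5 and 5, -0.31 without the lowest 25% of peaks, -0.10 scaled to tags in peaks, -0.18 with median-of-ratios scaling, edgeR and DESeq2, -0.28 with quantile normalization and -0.39 with Peak Score 1000. The Olig2+ median was -0.061 without the lowest 25%, -0.025 with median-of-ratios scaling, -0.0056 with quantile normalization, -0.024 with edgeR and DESeq2, -0.15 with Peak Score 1000 and -0.19 over 5000 bp from a TSS. A change of the p threshold leaves medians as they are. With a reciprocal overlap of 50%, 31.9%, 29.4% and 36.8% of gene ends overlapped another sort, beside 33.4%, 34.5% and 42.2% of all peaks. Among matched gene ends, leaving out 1 library gave 44 to 103, 20 to 50 and 21 to 64 calls for microglia against NeuN+, microglia against Olig2+ and NeuN+ against Olig2+ nuclei, and quantile normalization 41 and 24 for the first and the last.

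The replicate number did not pair libraries: deviations of same-numbered libraries from their group means correlated at 0.042, 0.0036 and 0.00069. With it as a replicate block 445, 1141 and 602 gene ends were called (microglia, NeuN+, Olig2+). Changes of sign among named peaks were at peaks that were not called, except Fam120a and Sec14l2 in NeuN+ nuclei (0.10 and 0.23 with quantile normalization). They were Sdhc in microglia (-0.08 scaled to tags in peaks, -0.49 with quantile normalization, -0.01 to 0.25 with 1 library left out), Kdr (-0.13, -0.30, and -0.20 to 0.36) and Mir9-3 (-0.09 to 0.62 with 1 library left out). In NeuN+ nuclei they were Gfap (0.28 scaled to tags in peaks, 0.20 with median of ratios, 0.14 with quantile, 0.21 with edgeR and DESeq2, 0.02 without WT replicate 2, 0.08 without SgshKO replicate 2) and AB124611 (0.27, 0.19, 0.23 and 0.19 in the same order, and -0.12 to 0.08 with 1 library left out).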
